A study of Rattus norvegicus with 20 samples.

Results

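The liver removes foreign compounds and their conjugates with ATP-driven export pumps of the ABC family. Abcc3 and Abcc4 sit in the blood-facing membrane of the hepatocyte and pass glucuronides, other conjugates and organic anions back to the blood. Abcc2, Abcg2 and the P-glycoproteins encoded by Abcb1a and Abcb1b sit in the membrane of the bile canaliculus and load conjugates, sulfates and drugs into bile. Several of these genes are known targets of the foreign-compound receptors CAR and PXR, of the bile acid receptor FXR and of the oxidant-responsive factor NRF2.

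The 6 genes described here were chosen by name, as ABC exporters of drugs and conjugates, and every probe set annotated to them was read. These are 7 probe sets of 31042 analysed. Abcc2, Abcc3, Abcc4 and Abcg2 have 1 probe set each and Abcb1a has 2, so 5 of the 6 genes stand among the 14217 genes tested. Abcb1b has no probe set of its own: the remaining probe set carries the symbols of both Abcb1a and Abcb1b, and its signal is assigned here to neither gene.

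Male Harlan Sprague-Dawley rats received triphenyl phosphate, an organophosphate flame retardant that also serves as a plasticiser, in corn oil by oral gavage, or corn oil alone. There were 4 daily doses, and RNA of the left liver lobe was taken on day 5 and read on Affymetrix expression arrays. The vehicle group holds 5 arrays, and the groups given 55, 110, 220, 440 and 881 mg/kg hold 3 each, 20 in all, without other treatment or genotype. The sample labels write 440 mg/kg where the design text writes 441, and the labels used here state no age. The treatment text speaks of equal groups of 3 rats, and the labels do not tie arrays to animals, so p-values reflect only the spread among these samples, some of which may be technical.

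Values are log2 expression after RMA, a summary that equalises the arrays, so a difference of 1 is a 2-fold difference in signal. They can be compared between groups for a given probe set but not between probe sets. A gene is said to have risen or fallen where limma's adjusted p, over all 14217 genes of a comparison, was under 0.05. Array medians lay between 6.31 and 6.40. The array of 881 mg/kg replicate 2 stood apart: its median correlation with the other arrays was 0.980, against 0.990 to 0.994 for the rest, and its 3' minus 5' difference of the Gapdh control probe sets was 5.24, against 0.81 to 1.64. Main values at 881 mg/kg are repeated with that array left out. The 7 measured of 8 hepatocyte markers had vehicle means between 14.1 and 15.3 and were all well detected. At 881 mg/kg 1 of them rose and 2 fell, beside 12.7% and 6.73% of all genes. Without 881 mg/kg replicate 2, 1 rose and 0 fell.

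The upstream sequences of 3 canalicular pumps show where the best known receptor-binding arrangement of the group lies. Each is the 250 bases before the annotated start of transcription, from RefSeq on GRCr8, in the direction of the gene, and capitals mark motif matches other than the CCAAT box. The Abcc2 stretch is chr1:252613625-252613874 on the plus strand. Both P-glycoprotein genes lie on the minus strand of chromosome 4, Abcb1a at chr4:26397649-26397898 and Abcb1b at chr4:26280030-26280279.
Abcc2: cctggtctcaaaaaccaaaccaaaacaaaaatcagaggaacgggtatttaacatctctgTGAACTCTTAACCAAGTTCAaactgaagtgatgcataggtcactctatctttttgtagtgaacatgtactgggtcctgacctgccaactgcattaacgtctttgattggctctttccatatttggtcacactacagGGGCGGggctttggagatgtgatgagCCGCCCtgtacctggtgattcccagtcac
Abcb1a: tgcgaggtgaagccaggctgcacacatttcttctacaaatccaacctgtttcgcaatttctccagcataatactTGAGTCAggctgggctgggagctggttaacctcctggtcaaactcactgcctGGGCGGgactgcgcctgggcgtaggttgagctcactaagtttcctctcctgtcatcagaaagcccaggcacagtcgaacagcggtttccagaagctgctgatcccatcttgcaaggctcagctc
Abcb1b: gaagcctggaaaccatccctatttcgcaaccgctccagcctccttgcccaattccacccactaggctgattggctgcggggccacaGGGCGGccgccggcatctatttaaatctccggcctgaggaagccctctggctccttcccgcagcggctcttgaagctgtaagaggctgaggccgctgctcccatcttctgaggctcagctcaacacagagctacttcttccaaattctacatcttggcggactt

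In Abcc2, bases -191 to -172 match TGAACTNNNNNNNNAGTTCA, the nuclear receptor element AGTTCA in everted repeat with 8 bases between the copies. Among 27457 promoters of the same length searched on both strands, 1 held this arrangement (0.00364%), that of Abcc2. Everted repeats of this spacing in the rat Abcc2 promoter are known from other work to bind FXR, PXR and CAR with RXR. A match in Abcc2 was therefore foreseeable. The search asked for exact letters in both copies, which makes matches rare, so the share is a description and no test. The single element AGTTCA, which the repeat contains, was found in 12.1% of promoters. The GC box GGGCGG was found in 32.4%, and it lies at 2 places in Abcc2 and at 1 each in Abcb1a and Abcb1b. Abcb1a also holds the AP-1 match TGANTCA at -176 to -170, a motif present in 6.36% of promoters. The CCAAT box, searched as ATTGG and present in 34.3%, was found at 1 place in Abcc2 and at 2 in Abcb1b. The xenobiotic response core GCGTG, present in 27.2%, was found in none of the printed stretches. It was found at 2 places in the Abcc4 promoter, which is not printed, and not in that of Abcg2. The antioxidant response core TGACNNNGC, present in 10.2% of promoters, was found in none of the 5 member promoters in the table, which also covers Abcc4 and Abcg2. The table has no entry for Abcc3. A match describes letters and not a bound site, and these windows hold only the bases nearest the start.

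Abcc3, which exports glucuronides and bile salts to the blood, rose most of the members and rose over a wide range of doses. Its vehicle arrays read 6.38, 6.36, 6.63, 6.83 and 6.72, with a mean of 6.58 ± 0.21 (SD, n = 5). At 55 mg/kg the arrays read 6.52, 7.24 and 7.21, and at 110 mg/kg they read 6.93, 8.91 and 8.36. The lowest array at 55 mg/kg lay inside the vehicle range, while at 110 mg/kg all 3 lay above it, widely spread among themselves (8.07 ± 1.02, SD, n = 3). At 220 mg/kg the values were 9.18, 8.48 and 9.57, at 440 mg/kg 9.36, 9.90 and 10.38, and at 881 mg/kg 10.22, 10.38 and 10.15. The group means climbed at every dose, to 10.25 ± 0.12 (SD, n = 3) at the highest, yet the ranges of each pair of neighbouring doses overlapped. No single step between neighbours was therefore separated by its arrays, although every array from 110 mg/kg on exceeded every vehicle array.

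Against vehicle, Abcc3 differed by a log2 change of 0.41 ± 0.33 (SE) at 55 mg/kg, which did not pass the test (adjusted p = 0.610). It rose by 1.48 ± 0.33 at 110 mg/kg (adjusted p = 0.0168), by 2.49 ± 0.33 at 220 mg/kg (adjusted p = 0.000288) and by 3.30 ± 0.33 at 440 mg/kg (adjusted p = 3.67e-06). The rise at 881 mg/kg was 3.67 ± 0.33, or 12.7-fold (adjusted p = 1.31e-06). The corresponding ratios to vehicle at 55, 110, 220 and 440 mg/kg were 1.33-, 2.80-, 5.63- and 9.82-fold. On the log2 scale 40.4% of the change at the highest dose was present at 110 mg/kg, 68.0% at 220 mg/kg and 89.8% at 440 mg/kg. The call at 110 mg/kg rested on its higher arrays: without replicate 2 of that group the change was 1.06 (adjusted p = 0.115), and without replicate 3 it was 1.34 (adjusted p = 0.0928). Without 881 mg/kg replicate 2 the change at that dose was 3.60, and Abcc3 still rose.

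Genes were ranked by signed change, the largest rise first. Among all 14217 genes, Abcc3 held place 323 at 55 mg/kg, 13 at 110, 2 at 220, 3 at 440 and 4 at 881 mg/kg. At the highest dose 4 genes (0.0281%), Abcc3 included, had an upward change at least as large. Its slope over the 6 dose steps was 0.79 ± 0.056 log2 per step (adjusted p = 8.06e-09), the steepest upward slope but 1 of all genes. Abcc3 was singled out for description with this steepness known, so its places are a description.

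Abcc4, the other blood-facing pump and a carrier of cyclic nucleotides and sulfated bile acids, showed a plateau at the lower doses and then a climb. Its vehicle arrays read 6.32, 5.95, 6.61, 6.37 and 6.53 (6.36 ± 0.26, SD, n = 5). At 55 mg/kg they read 6.45, 6.85 and 7.34, at 110 mg/kg 6.96, 6.67 and 7.17, and at 220 mg/kg 7.03, 6.82 and 6.83. The means of these 3 groups, 6.88, 6.93 and 6.89, were close to each other and their ranges overlapped, and at 110 and 220 mg/kg every array exceeded every vehicle array. At 440 mg/kg the arrays read 7.24, 7.48 and 7.43, and at 881 mg/kg 7.71, 8.45 and 7.93. Neither the ranges of 220 and 440 mg/kg nor those of 440 and 881 mg/kg overlapped. By limma neither step passed (adjusted p = 0.816 and 0.220). The smallest two-sided exact permutation p that 3 against 3 arrays can give is 0.1. How many of all genes were separated between neighbouring doses was not counted.

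Abcc4 changed by 0.53, 0.58 and 0.54 (SE 0.19 each) at 55, 110 and 220 mg/kg, none of which passed the test (adjusted p = 0.156, 0.101 and 0.132). It rose by 1.03 ± 0.19 at 440 mg/kg (adjusted p = 0.00147) and by 1.68 ± 0.19, or 3.20-fold, at 881 mg/kg (adjusted p = 9.89e-06). Weighting the arrays by their quality brought the changes at the 3 lower doses past the threshold (adjusted p = 0.0359, 0.0470 and 0.0438). The value at 55 mg/kg depended on replicate 3 of that dose, without which it was 0.30. Replicate 2 at 881 mg/kg was its highest array, and without it the rise there was 1.46.

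Abcc2, the canalicular exporter of bilirubin glucuronides and glutathione conjugates, rose by little and passed the test at 440 and 881 mg/kg. The vehicle arrays read 10.99, 11.22, 11.12, 10.98 and 11.18 (11.10 ± 0.11, SD, n = 5). The arrays at 55, 110 and 220 mg/kg spanned 11.15 to 11.38, 11.03 to 11.25 and 11.19 to 11.46, each overlapping vehicle. At 440 mg/kg they read 11.31, 11.49 and 11.51 and at 881 mg/kg 11.77, 11.89 and 11.63. Both of these groups lay wholly above vehicle. The highest dose lay wholly above the dose beneath it, though by limma that step did not pass (adjusted p = 0.218).

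The changes of Abcc2 were 0.16, 0.052 and 0.20 at the 3 lower doses (adjusted p = 0.427, 0.828 and 0.278). It rose by 0.34 ± 0.091 at 440 mg/kg (adjusted p = 0.0199) and by 0.66 ± 0.091, or 1.58-fold, at 881 mg/kg (adjusted p = 7.19e-05). The call at 440 mg/kg was lost without vehicle replicate 4 (0.31, adjusted p = 0.0510), without 440 mg/kg replicate 2 (0.31, adjusted p = 0.0929) or without its replicate 3 (0.31, adjusted p = 0.0954). At 881 mg/kg Abcc2 still rose without replicate 2, by 0.60.

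Abcb1a, which encodes a P-glycoprotein that exports bulky, mostly uncharged drugs into bile, was the member that rose at the lowest dose. On the brighter of its 2 probe sets the vehicle arrays read 7.25, 7.24, 7.25, 7.49 and 7.40 (7.33 ± 0.11, SD, n = 5). At 55 mg/kg the arrays read 7.86, 8.13 and 8.04, above all vehicle arrays. The arrays at 110 mg/kg read 8.02, 8.46 and 8.53, those at 220 mg/kg 8.36, 8.68 and 8.13, those at 440 mg/kg 8.97, 8.66 and 8.82, and those at 881 mg/kg 8.57, 9.28 and 9.14. From 55 mg/kg upward the range of each dose overlapped the next on this probe set.

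Abcb1a rose by 0.68 ± 0.15 at 55 mg/kg (adjusted p = 0.0200), 1.01 at 110 mg/kg (adjusted p = 0.000830) and 1.06 at 220 mg/kg (adjusted p = 0.000565). The rise was 1.49 at 440 mg/kg (adjusted p = 4.50e-06) and 1.67 ± 0.15, or 3.18-fold, at 881 mg/kg (adjusted p = 1.42e-06). The call at 55 mg/kg was lost without replicate 2 (0.62, adjusted p = 0.107) or replicate 3 (0.67, adjusted p = 0.0846) of that group. The dimmer probe set changed by 0.64 at 55 mg/kg, where it did not pass (adjusted p = 0.0655), and by 0.89, 0.95, 1.46 and 2.13 at the higher doses. The probe sets thus moved the same way, and differed most at 881 mg/kg, where the dimmer read 8.16, 9.17 and 8.45 and replicate 2 was high. On the dimmer probe set the arrays of 220 and 440 mg/kg did not overlap (difference of means 0.51), nor did those of 440 and 881 mg/kg (0.67). By limma neither of these steps passed (adjusted p = 0.871 and 0.196). Without 881 mg/kg replicate 2, Abcb1a rose by 1.53 on the brighter probe set.

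The probe set shared by Abcb1a and Abcb1b, which encodes a second rodent P-glycoprotein, followed a like course. Its vehicle arrays read 6.71, 6.18, 6.64, 6.40 and 6.51 (6.49 ± 0.21, SD, n = 5), and the arrays at 55 mg/kg read 7.17, 6.89 and 7.12. They spanned 7.12 to 7.46 at 110 mg/kg, 7.09 to 7.28 at 220 mg/kg and 7.40 to 7.77 at 440 mg/kg. At 881 mg/kg they read 7.92, 7.93 and 7.93, so replicate 2 did not stand apart there. All 3 arrays of every dose lay above all vehicle arrays. In a fit over all 31042 probe sets, with p-values adjusted over them, it rose by 0.58 (adjusted p = 0.0154), 0.83 (adjusted p = 0.000563), 0.70 (adjusted p = 0.00333), 1.07 (adjusted p = 1.02e-05) and 1.44 (adjusted p = 5.39e-07) from 55 to 881 mg/kg. Of all probe sets, 0.879%, 1.29%, 1.11%, 3.79% and 8.05% rose at these doses. Its call at 55 mg/kg was lost without replicate 1 (adjusted p = 0.0907) or replicate 3 (adjusted p = 0.0801) of that dose. How much of this signal comes from each gene was not measured.

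Abcg2, the canalicular exporter of sulfate conjugates and porphyrins, passed the test at no dose. The vehicle arrays read 8.82, 8.85, 9.09, 8.97 and 8.98 (8.94 ± 0.11, SD, n = 5). At 55 mg/kg they read 7.52, 8.89 and 8.76, at 110 mg/kg they spanned 8.63 to 9.17 and at 220 mg/kg 8.68 to 9.14. The arrays read 8.34, 9.03 and 8.90 at 440 mg/kg and 8.87, 9.40 and 9.06 at 881 mg/kg. At 55, 110 and 220 mg/kg 2 of the 3 arrays lay below all vehicle arrays, by far the most in replicate 1 at 55 mg/kg, and the range of every dose overlapped that of vehicle. The changes from 55 to 440 mg/kg were -0.55, -0.077, -0.11 and -0.19 (adjusted p = 0.252, 0.912, 0.874 and 0.680). At 881 mg/kg the change was 0.17 ± 0.24 (adjusted p = 0.666), with a 95% interval from -0.33 to 0.67, and without replicate 2 it was 0.022. A change up to about the size of that of Abcc2 therefore lies within its interval at the highest dose.

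**Figure D1:**
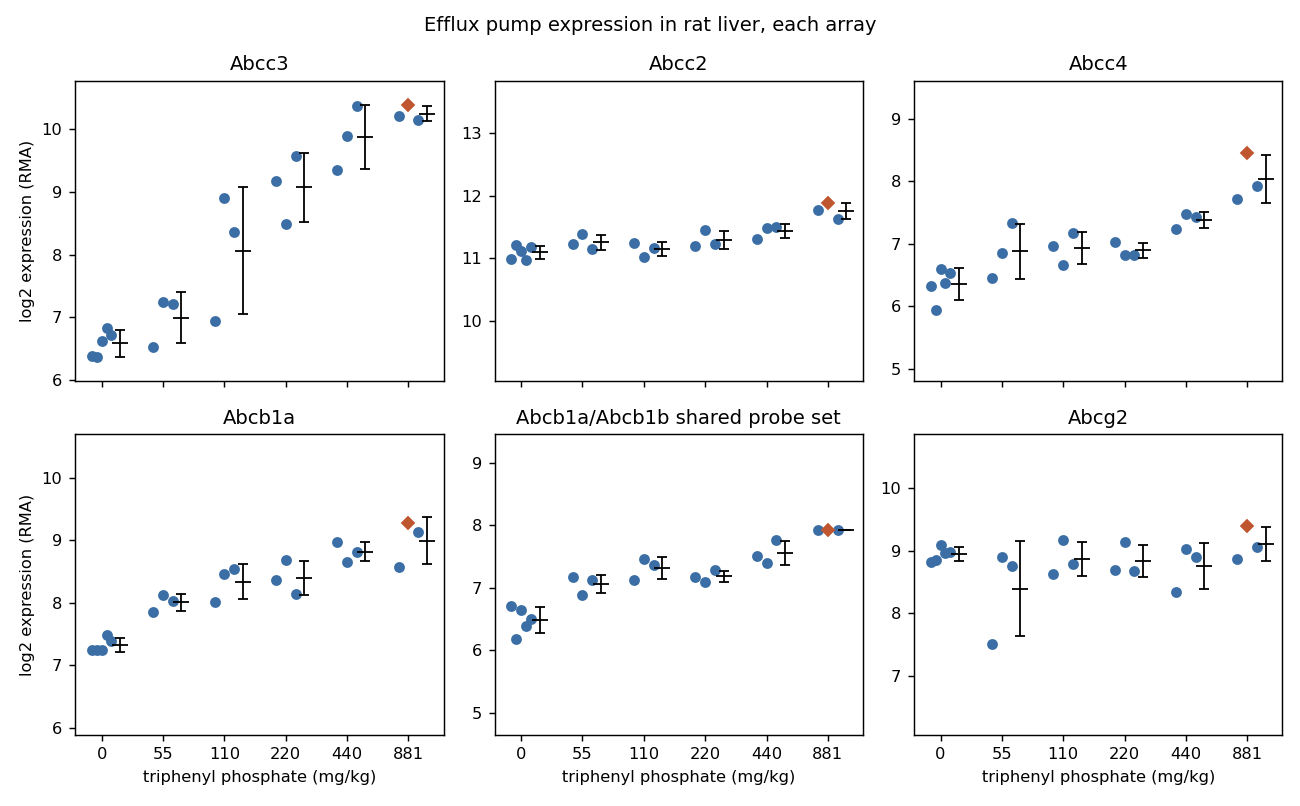
Log2 RMA expression (vertical axis, the same span in each panel) of the 5 measured members and the shared Abcb1a/Abcb1b probe set on each array, by dose of triphenyl phosphate in mg/kg. Points are arrays, the orange diamond is 881 mg/kg replicate 2, and bars give the mean ± SD; Abcc3 rises from 6.58 to 10.25 while Abcg2 overlaps vehicle at every dose.

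Counted over the 5 members with a probe set of their own, 1 rose at 55 mg/kg (Abcb1a), where 1.93% of all genes rose. At 110 mg/kg 2 rose (Abcb1a and Abcc3), against 2.36% of all genes, and the same 2 rose at 220 mg/kg, against 2.25%. At 440 mg/kg 4 rose, against 6.76%, and at 881 mg/kg 4 rose, against 12.7%; Abcg2 was the exception at both. By limma no member fell at any dose, and 1 had a lower value at an unadjusted p under 0.05 (Abcg2 at 55 mg/kg), where 0.879%, 1.24%, 1.18%, 4.28% and 6.73% of all genes fell in order of dose. At 881 mg/kg 1810 genes rose and 957 fell, so that 65.4% of calls were upward, and 76.8% were when arrays were centred on their medians. The median change of the 5 members was 0.41, 0.58, 0.54, 1.03 and 1.67 from the lowest dose to the highest, beside medians of all genes within 0.013 of 0.

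All arrays of the dose lay above all vehicle arrays for 1, 3, 3, 4 and 4 of the 5 members from the lowest to the highest dose. The share of all genes of which this was true was 9.33%, 7.62%, 7.95%, 12.8% and 13.4%. In the trend over dose steps 4 of the 5 rose, where 12.9% of all genes did. Besides Abcc3, the slopes per step were 0.32 ± 0.029 for Abcb1a (adjusted p = 2.03e-07), 0.28 ± 0.037 for Abcc4 (adjusted p = 1.47e-05), 0.11 ± 0.018 for Abcc2 (adjusted p = 0.000182) and 0.036 for Abcg2 (adjusted p = 0.610).

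Between the upper doses no member passed the test. From 440 to 881 mg/kg, where limma called 0.260% of all genes in either direction, 0 of the 5 members were called and 2 had an unadjusted p under 0.05. These were Abcc4, with a difference of 0.65 (adjusted p = 0.220), and Abcc2, with 0.32 (adjusted p = 0.218). Abcc3 differed by 0.37 between these doses (adjusted p = 0.810), with a 95% interval from -0.40 to 1.15. From 220 to 440 mg/kg limma called 0.0211% of all genes and 0 of the members, of which 3 had an unadjusted p under 0.05: Abcc3 with 0.80 (adjusted p = 0.848), Abcc4 with 0.49 (adjusted p = 0.816) and Abcb1a with 0.42 (adjusted p = 0.801).

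**Figure D2:**
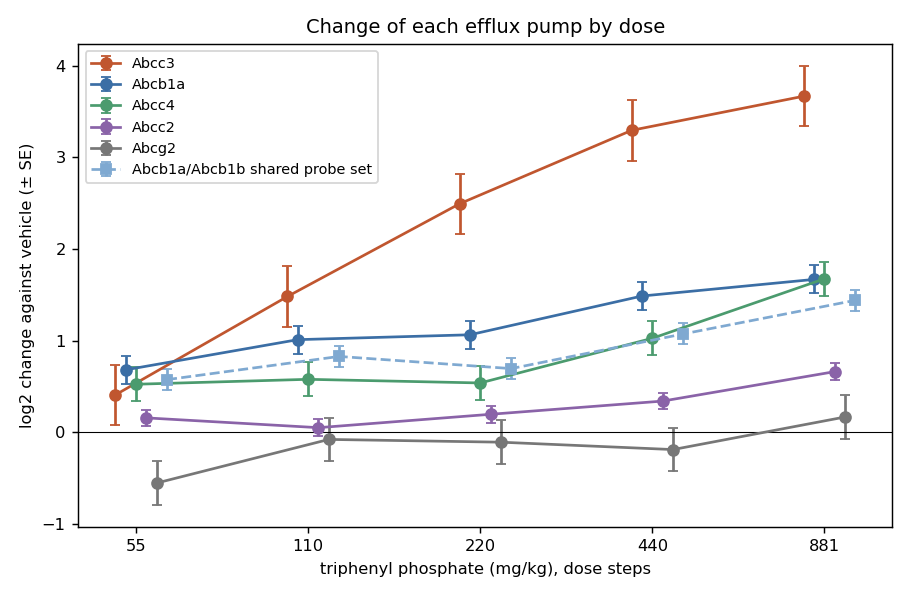
Log2 change against vehicle (vertical axis, ± SE from the fit) of each member and of the shared probe set at each dose step in mg/kg (horizontal axis). Abcb1a lies above Abcc3 at 55 mg/kg, 0.68 against 0.41, and Abcc3 lies above all others from 110 mg/kg on.

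The distance between Abcc3 and its relatives was measured as the change in the log2 difference of Abcc3 and each relative on the same array. At 881 mg/kg the rise of Abcc3 exceeded that of Abcc2 by 3.01 ± 0.15 (SE), an 8.03-fold shift in their ratio. It exceeded that of Abcc4 by 1.99 ± 0.17 (3.98-fold), that of Abcb1a by 2.0 ± 0.16 (4.00-fold), that of the shared probe set by 2.23 ± 0.18 (4.68-fold) and that of Abcg2 by 3.50 ± 0.12 (11.3-fold). With the dimmer Abcb1a probe set the difference was 1.54. For each of the 5 relatives all 3 arrays lay above all vehicle arrays in this difference. The two-sided exact permutation p was 0.0357 for each, the smallest that 3 against 5 arrays can give, and 0.0357 after Benjamini-Hochberg adjustment over the 5. Since Abcc3 was picked out with its response known, these p-values describe the spread of the arrays and are no independent evidence.

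At the lowest dose the order differed. At 55 mg/kg the change of Abcc3 minus that of Abcb1a was -0.27 ± 0.14, minus that of Abcc4 -0.12 ± 0.16 and minus that of the shared probe set -0.17 ± 0.28, and no array lay above all vehicle arrays in these 3 differences. At 110 mg/kg the values were 0.47 ± 0.33, 0.90 ± 0.49 and 0.65 ± 0.40, with 2 of 3 arrays above all vehicle arrays in each. At 220 mg/kg they reached 1.43 ± 0.35, 1.95 ± 0.26 and 1.80 ± 0.26, and all 3 arrays lay above. The lead of Abcc3 over Abcb1a and Abcc4 thus appeared in every array first at 220 mg/kg. Over Abcc2 the lead was 0.25, 1.43, 2.30 and 2.95 from 55 to 440 mg/kg, and over Abcg2 it was 0.96, 1.56, 2.60 and 3.48. Between 440 and 881 mg/kg the lead over Abcc4 went from 2.27 ± 0.21 to 1.99 ± 0.17, and that over Abcc2 from 2.95 ± 0.23 to 3.01 ± 0.15. The doses below 881 mg/kg are given as values, with no test.

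**Figure D3:**
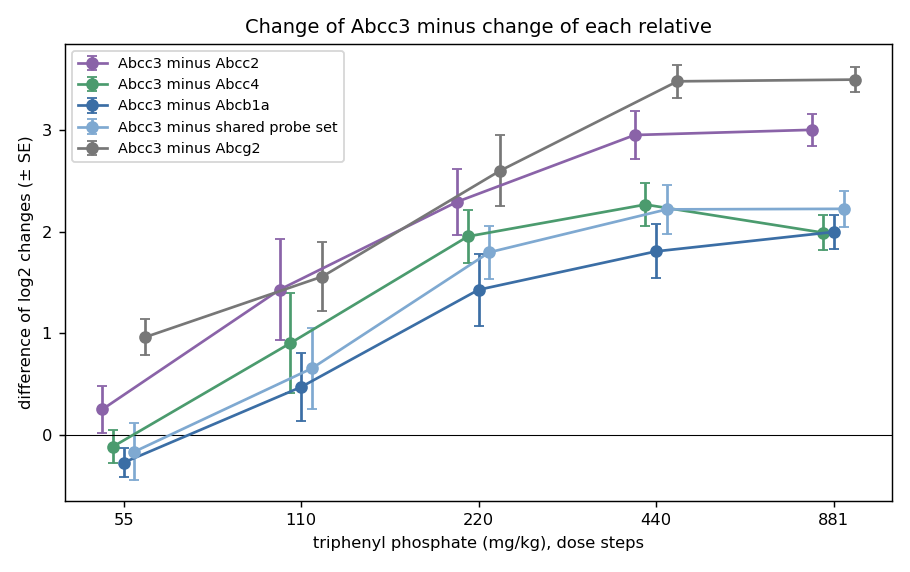
Change of Abcc3 minus change of each relative (vertical axis, log2, ± SE over arrays) at each dose step in mg/kg (horizontal axis). The differences from Abcb1a, Abcc4 and the shared probe set lie below 0 at 55 mg/kg and between 1.99 and 2.23 at 881 mg/kg.

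Across the 20 arrays, Abcc3 correlated with Abcb1a at Pearson's r = 0.885 (Spearman's rho 0.910), with Abcc4 at 0.803 (0.869), with Abcc2 at 0.711 (0.71) and with Abcg2 at 0.294 (0.265). Arrays share the dose groups, so any genes that follow dose correlate, and these values are a description with no test. By the same measure, Abcb1a held place 26 among all genes in likeness to Abcc3.

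The 5 genes most like Abcc3 over the 20 arrays were all enzymes of foreign-compound metabolism. They were the retinal dehydrogenase Aldh1a1 (r = 0.975, log2 change at 881 mg/kg 1.51), the cytochrome P450 Cyp3a23-3a1 (0.959, 1.18), the glucuronosyltransferase Ugt2b1 (0.953, 1.61), the carboxylesterase Ces2c (0.945, 4.03) and the glutathione transferase Gsta3 (0.944, 2.72). Their array-to-array deviations from the group means correlated with those of Abcc3 at r = 0.81, 0.80, 0.73, 0.56 and 0.89. The median over all genes was 0.010. These deviations are part of the r by which the 5 genes were picked, so the values are no separate agreement. By Spearman's rho 3 of the 5 remained among the top 5, and over the 6 group means 1 did (Aldh1a1).

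For the other pumps the closest genes were of mixed kinds. Abcc4 ran closest to Lmf1, a maturation factor of lipases, with r = 0.961, to the peptidase Nln with 0.947 and to Elp2, a subunit of the Elongator complex, with 0.934. Abcb1a ran closest to Nudt6 (0.941), Stn1 (0.926) and Trappc13 (0.924), and Abcc2 to the ubiquitin-conjugating enzyme Ube2g1 (0.891), the glucuronosyltransferase Ugt2b10 (0.889) and Gpr180 (0.884). For Abcg2 the highest values were lower: Rce1 (0.782), Snrpa1 (0.771) and Ndufs6 (0.767). By Spearman's rho and by group means 2 of 3 stayed in the top 3 for Abcc4, and none for Abcb1a, Abcc2 and Abcg2, so those names depend on the measure.

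Of the other ABC transporters, 26 of 31 listed were measured. At 881 mg/kg 4 of the 26 rose and 5 fell, where 12.7% of all genes rose and 6.73% fell. The share that rose was thus near that of all genes. Their median change was -0.076, near that of all genes. Among the largest changes were those of Abcg5 (-1.66 ± 0.29, adjusted p = 0.000725) and Abcg8 (-1.50 ± 0.26, adjusted p = 0.000644), which together form the canalicular sterol exporter, and both fell. Abcd2, a peroxisomal importer of fatty acyl-CoA, rose by 1.56 ± 0.23 (adjusted p = 0.000135). Abcb4, the phospholipid floppase of the canaliculus and the chromosomal neighbour of Abcb1a and Abcb1b, fell by 0.73 ± 0.079 (adjusted p = 7.48e-06). Its changes at 110, 220 and 440 mg/kg were -0.44, -0.42 and -0.80 (adjusted p = 0.00383, 0.00545 and 2.81e-06), so it fell at each dose from 110 mg/kg on, where Abcb1a and the shared probe set rose. Abcb10 (0.50), Abca3 (0.45) and Abca2 (0.25) also rose, and Abcb11 (-0.27) fell. Abcb9 fell at the 4 lower doses, by 0.79, 0.83, 0.87 and 0.89 from 55 to 440 mg/kg (adjusted p = 0.0226, 0.0134, 0.0105 and 0.00335), and did not pass at 881 mg/kg (-0.15, adjusted p = 0.596). Within the Abcc subfamily, Abcc1 changed by 0.25 (adjusted p = 0.0790) and Abcc6 by -0.32 (adjusted p = 0.0317), beside 3.67 for Abcc3. Without 881 mg/kg replicate 2 the list had 2 that rose and 4 that fell. Abcb10 (0.25, adjusted p = 0.105), Abca2 (0.24, adjusted p = 0.0724) and Abcb11 (-0.18, adjusted p = 0.226) then lost their calls. With arrays centred on their medians 5 rose and 3 fell. Abcc6 (-0.27, adjusted p = 0.0652) and Abcb11 (-0.22, adjusted p = 0.0692) lost their calls when centred.

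**Figure D4:**
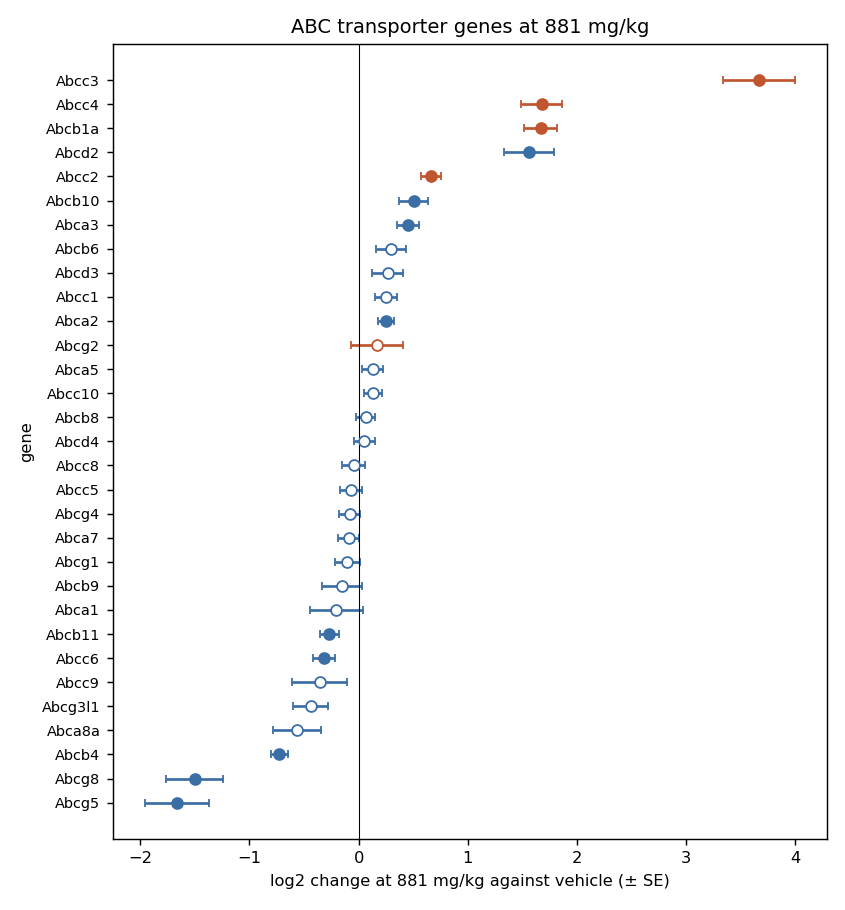
Log2 change at 881 mg/kg against vehicle (horizontal axis, ± SE) of 31 measured ABC transporter genes, the 5 members in orange and the 26 others in blue; filled points passed the test and open points did not. Abcc3 lies at 3.67, Abcc4 and Abcb1a at 1.68 and 1.67, and Abcg5 and Abcg8 at -1.66 and -1.50.

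Of 9 listed genes of other hepatic export routes 7 were measured. At 881 mg/kg 12.7% of all genes rose and 6.73% fell. By limma 0 rose at 881 mg/kg (1, Abcc1, at an unadjusted p under 0.05) and 3 fell: the anion transporter Slc22a7 by 0.39 ± 0.066 (adjusted p = 0.000459), the bile salt export pump Abcb11 by 0.27 ± 0.088 (adjusted p = 0.0379) and Abcc6. Without replicate 2 of that dose 0 rose and 2 fell, Abcb11 losing its call (adjusted p = 0.226). Centred on array medians, 1 rose (Abcc1, 0.30, adjusted p = 0.0436) and 1 fell (Slc22a7).

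Of 15 listed regulators of exporter genes, 14 were measured. At 881 mg/kg 4 rose and 1 fell, where 12.7% of all genes rose and 6.73% fell. The largest changes were in Nr0b2, the FXR-induced repressor SHP (1.10 ± 0.34, adjusted p = 0.0304), Keap1, which restrains NRF2 (0.49 ± 0.11, adjusted p = 0.00315), Nr1i2, which encodes PXR (-0.44 ± 0.075, adjusted p = 0.000474), and Nr5a2 (0.44 ± 0.088, adjusted p = 0.00187). Ahr also rose, by 0.27, from a vehicle mean of 5.02, below the array medians. Nr1i2 fell already at 110 and 220 mg/kg (-0.34 and -0.33), and Nr5a2 rose from 55 to 220 mg/kg (0.52, 0.50 and 0.38); neither passed at 440 mg/kg. The transcripts of CAR and NRF2 did not pass at 881 mg/kg, Nr1i3 changing by -0.21 (adjusted p = 0.569) and Nfe2l2 by -0.24 (adjusted p = 0.182). Nfe2l2 fell at 440 mg/kg, by 0.45 (adjusted p = 0.0255). Without 881 mg/kg replicate 2, 2 rose and 1 fell, and Nr0b2 (0.87, adjusted p = 0.165) and Ahr (0.22, adjusted p = 0.158) no longer passed. These are transcript levels and not activities of the receptors.

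Listed targets of the receptors rose beside the pumps. This and the other lists were chosen with earlier results of these data known, so their counts are a description and no test. The CAR and PXR list holds Aldh1a1, Cyp3a23-3a1, Ugt2b1, Ces2c and Gsta3, the genes named above as most like Abcc3. Of the CAR and PXR targets, 17 of 21 listed were measured, and 3, 5, 7, 11 and 13 rose from 55 to 881 mg/kg. Of all genes, 1.93%, 2.36%, 2.25%, 6.76% and 12.7% rose at these doses. A fall was called for 1 target at 440 mg/kg (Cyp2a1, -0.41) and for none at the other doses. The 3 that rose at 55 mg/kg were Ces2c (1.18), Por (0.65) and Ugt2b1 (0.59). The median change at 881 mg/kg was 1.07, beside 0.00072 over all genes. The largest were the aldo-keto reductase Akr1b7 (4.86 ± 0.72, adjusted p = 0.000146), Ces2c (4.03 ± 0.21, adjusted p = 1.01e-09), Gsta3 (2.72 ± 0.43, adjusted p = 0.000246) and Alas1, the entry enzyme of heme synthesis (1.70 ± 0.23, adjusted p = 6.89e-05). Slco1a4 (-0.056, adjusted p = 0.779), Cyp3a18 (0.24, adjusted p = 0.265), Cyp2c7 (0.18, adjusted p = 0.475) and Cyp2a1 (0.081, adjusted p = 0.665) did not pass at 881 mg/kg. Akr1b7 had a vehicle mean of 4.70, below the array medians, and an SD of 1.23 at 881 mg/kg. Without 881 mg/kg replicate 2, 12 rose, and Akr1b7 changed by 4.33.

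NRF2 targets, of which 20 of 23 were measured, were first called at 220 mg/kg. By limma 0, 0, 2, 8 and 13 rose from 55 to 881 mg/kg (at an unadjusted p under 0.05, 1 and 4 were higher at 55 and 110 mg/kg). The shares of all genes that rose were 1.93%, 2.36%, 2.25%, 6.76% and 12.7%. Gsta4 (0.48) and Akr7a3 (1.15) were the 2 at 220 mg/kg, 1 fell at 440 mg/kg (Osgin1, -1.14), and the median at 881 mg/kg was 0.996. Gstp1, a glutathione transferase, rose by 2.22 ± 0.26 (adjusted p = 1.69e-05), the aldo-keto reductase Akr1b8 by 2.12 ± 0.42 (adjusted p = 0.00199), the aflatoxin aldehyde reductase Akr7a3 by 1.86 ± 0.29 (adjusted p = 0.000216) and malic enzyme, Me1, by 1.81 ± 0.24 (adjusted p = 6.89e-05). Without 881 mg/kg replicate 2, 13 NRF2 targets rose. The changes of Gstp1, Akr1b8, Akr7a3 and Me1 were then 2.24, 1.22, 1.76 and 1.93. Akr1b8 had a vehicle mean of 4.97, below the array medians, and an SD of 1.69 at 881 mg/kg. The doses at which the CAR and PXR list and the NRF2 list rose were not compared by a test. Abcc3 was first called at 110 mg/kg, Abcb1a at 55 mg/kg and Abcc2 and Abcc4 at 440 mg/kg.

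Of 25 listed enzymes that make the conjugates carried by the pumps 21 were measured. In order of dose 1, 1, 1, 10 and 12 of them rose, beside 1.93%, 2.36%, 2.25%, 6.76% and 12.7% of all genes. A fall was called for 0, 0, 1, 2 and 4, beside 0.879%, 1.24%, 1.18%, 4.28% and 6.73% of all genes. Ugt2b1 was the single gene that rose at 55, 110 and 220 mg/kg (0.59, 0.81 and 1.19). At 881 mg/kg the median was 0.48, and Gsta3, Gstt3 (1.87 ± 0.27, adjusted p = 0.000117), Ugt2b1 (1.61 ± 0.13, adjusted p = 5.68e-07) and Ugt2b7 (1.22 ± 0.28, adjusted p = 0.00475) changed most. The 4 that fell were all on the sulfate side: the sulfotransferases Sult1a1 (-0.67), Sult1c2 (-0.97) and Sult1c3 (-1.08), and Papss2 (-0.55), which makes the sulfate donor. These were named after their values were seen. Without 881 mg/kg replicate 2, 10 rose and 4 fell. Other sulfotransferases rose, Sult2a6 by 1.19 and Sult2b1 by 0.68. Gsta3, Ugt2b1, Gstm1 and Ugdh stand in more than 1 of the lists described here. So do Abcb11, Abcc1, Abcc5 and Abcc6, which are both other ABC transporters and other hepatic export genes.

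Markers of other liver cells also moved at 881 mg/kg, and some of the pumps are expressed in bile duct, endothelial and blood cells. At that dose 12.7% of all genes rose and 6.73% fell. Of 5 measured of 7 bile duct markers 1 rose, Epcam (0.86), while Krt19 (-0.064) and Krt7 (-0.017) did not pass. Spp1 (-0.18) and Cftr (0.0028) did not pass either, and Krt7 and Cftr had vehicle means of 5.21 and 5.20, below the array medians. The summed linear level of the list was 734 to 965 in vehicle and 1148 to 1736 at 881 mg/kg, with Epcam the single member that rose. Of 6 measured Kupffer cell markers 5 fell (summed level 7920 to 10510 in vehicle and 4386 to 6998 at 881 mg/kg), of 7 stellate cell markers 4 fell (3449 to 4952 and 1914 to 3056), and of 6 endothelial markers 3 fell (4767 to 6351 and 3019 to 5406). Of 6 blood cell markers 3 fell (6057 to 11002 and 1311 to 3881). Without 881 mg/kg replicate 2 the numbers that fell were 3, 2, 1 and 2 in the same order, and Epcam's list still had 1 that rose. In whole tissue, fewer cells of a type and less RNA per cell cannot be told apart. The part of these cells in the changes of the pumps was not tested.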

How the data were processed

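The authors deposited 1 log2 value per probe set and array, made with RMA per the submitters' processing notes. The sources used here name no RMA version, settings, scan date or batch, and the scale was judged to be log2 from the values. At most 0.0226% of values were equal between any pair of arrays. Of 31099 probe sets 57 controls were set aside. The platform annotation, which can be old, assigned 1 symbol to 20826 probe sets, more than 1 to 436 and none to 9780; 20758 matched a RefSeq gene (GRCr8) by gene ID and 0 symbols changed. A gene was read from its probe set with the highest mean.

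One model of 6 dose groups over all 20 arrays was fitted with limma 3.58.1 (lmFit, eBayes) in R 4.3.3, two-sided, with Benjamini-Hochberg adjustment over all genes and no filter on signal or fold. The trend used the dose step, 0 to 5. Probe sets were also fitted one by one. Differences between Abcc3 and relatives were tested by exact permutation of arrays (56 arrangements). Python 3.11.15, pandas 2.3.3, NumPy 2.4.6 and matplotlib 3.10.9 were used. On simulated arrays for 881 mg/kg against vehicle over 14217 genes, the fit recovered 97 of 100 genes changed by 1 and 100 of 100 changed by 2 (log2), with 9 false calls.

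Named were all members, from each list the called genes that changed most at 881 mg/kg (up to 4), and the 5 genes most like Abcc3 and 3 most like each other member. The members and lists were chosen with earlier results of these data known. Any gene named outside this rule was named after its value was seen. Alternatives were the treatment of probe sets, centring, a minimum mean log2 of 5, variance models, array weights, an RNA quality covariate, a replicate block and leaving out each array.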

Additional observations from a re-analysis of the deposited data

Results flagged for a closer look

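Among the vehicle arrays, replicate 4 stood above the others on the dimmer Abcb1a probe set. It read 6.74, and the gap to the next array was 0.805 of the group's range, above Dixon's 95% critical value of 0.71 for 5 arrays. Such a gap arises by chance in about 1 of 20 groups. The vehicle arrays of all 7 probe sets were screened at both ends, so 1 flag is not unusual. The same array was also the highest vehicle array of Abcc3 (6.83) and of the brighter Abcb1a probe set (7.49), though not beyond that limit.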

How the results depend on the processing

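The calls of Abcc3 at 220, 440 and 881 mg/kg, of Abcb1a from 110 mg/kg on, of Abcc4 at 440 and 881 mg/kg and of Abcc2 at 881 mg/kg held under every alternative run. Leaving out 1 array at a time, Abcc3 at 110 mg/kg ranged from 1.06 to 2.05, and the number of genes called ranged from 127 to 648 at 55 mg/kg, 212 to 705 at 110, 204 to 748 at 220, 867 to 2000 at 440 and 1643 to 2867 at 881 mg/kg, beside 400, 513, 488, 1570 and 2767 with all arrays. The lowest count at 881 mg/kg was that without its replicate 2. The lead of Abcc3 at 881 mg/kg ranged from 2.92 to 3.10 over Abcc2, 1.85 to 2.14 over Abcc4, 1.80 to 2.12 over Abcb1a, 3.39 to 3.58 over Abcg2 and 2.12 to 2.31 over the shared probe set; the exact permutation p was then 0.0571 or 0.0952, the smallest that 1 array less allows. Array weights called 842, 800, 1293 and 2511 genes at 55, 110, 220 and 440 mg/kg, the beta-actin 3' minus 5' covariate called 678 and 780 at 55 and 110 mg/kg, and only the 881 mg/kg and vehicle groups in the fit called 1795; the cause was not tested. Among lists at 881 mg/kg, without its replicate 2, 2 other ABC exporters and 2 regulators rose, and with centred arrays 3 other ABC exporters and 1 gene of other hepatic export fell; these alternatives and the fits of the shared and dimmer probe sets were chosen after seeing the data. Abcg2, never called, changed sign at 881 mg/kg with the covariate (-0.11) and from 220 to 440 mg/kg with array weights (0.086). Leaving out arrays, it ranged from -0.23 to 0.039 at 110 mg/kg (above 0 without replicate 1), from -0.32 to 0.019 at 440 mg/kg (above 0 without replicate 1), and from -0.22 to 0.13 between 220 and 440 mg/kg (above 0 without 440 mg/kg replicate 1, or, at 0.071, without 220 mg/kg replicate 2).

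Arrays with the same replicate number had correlations of their deviations between -0.12 and 0.35 (median 0.14, 28 of 45 pairs over 0.1), beside a median of -0.077 and 8 of 90 pairs over 0.1 for different numbers, and 15 of 18 arrays correlated best with their own number. Since not every pair was over 0.1, the numbers were not taken as pairs. That rule cannot decide whether arrays of the same number share a factor. The main fit and the permutation tests treat the arrays as independent, which they may not be. These values are a hint from the data and not the design. With the replicate number as a block, 314, 383, 366, 1549 and 2735 genes were called from 55 to 881 mg/kg, Abcc3 changed by 0.54, 1.61, 2.62, 3.42 and 3.80, and no call of a member changed. With 3 arrays a group, the median SE of a log2 change was 0.10, which limits what can be seen of small changes.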
